A study of Mus musculus with 6 samples.

Results

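Sorted mouse elongating spermatids were profiled on Affymetrix 3' arrays, and the 4 arrays hybridised with RNA from cells that had received a short hairpin RNA (2 titled shCaf1, 2 titled shMiwi) are ranked here as one set. Where values of the shMiwi and shCaf1 arrays are set side by side, this is a description with no test. These are 4 of the 6 arrays of the series. The other 2 carry RNA from cells given the pSilencer vector without a named hairpin and serve only for orientation. All groups were wildtype ICR mice, labelled adult, whose testes were transduced at 5 weeks of age with a lentiviral vector that also encodes GFP (shMiwi:GFP, shCaf1:GFP or pSilencer:GFP). GFP-positive elongating spermatids were sorted from total germ cells 1 week later. Replicates are labelled biological, but how many animals went into an array is not stated, so the spread quoted may be partly technical.

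Elongating spermatids are postmeiotic male germ cells in which histones are replaced by transition proteins and then by protamines, the nucleus condenses, and the flagellum and acrosome are completed. Transcription stops during condensation, and many transcripts made earlier are stored in ribonucleoprotein particles and translated later. Spermatids also express germ cell paralogues of enzymes and structural proteins that other cells make from a different gene, often one on the X chromosome, which is silenced in meiosis. Caf1 was read as Cnot7, a deadenylase of the CCR4-NOT complex, and Miwi is Piwil1, the piRNA-binding PIWI protein of spermatocytes and spermatids.

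Abundance was expressed as a percentile: each of 45037 probe sets was ranked by its deposited signal within an array, with 100 the brightest, and the percentile was averaged over the 4 arrays. A gene was represented by its probe set with the highest mean percentile, which gave 18193 genes. The median gene lay at 68.7 ± 0.163 (SD, n = 4 arrays), and 17.2% of genes exceeded the 90th percentile. Signal also depends on probe sequence, so the order is one of signal and not of molecule number. Levels of different genes are compared by percentile, and signals are printed to show the value on each array.

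The 4 arrays ordered the probe sets alike, with Spearman's rho between 0.936 and 0.950 over the probe sets, a description since probe sets are not replicates. Against the same arrays, rho was between 0.238 and 0.258 for control 1 and between 0.504 and 0.536 for control 2. The range of a probe set over the 4 arrays had a median of 0.213 percentile points among the 433 probe sets above the 99th percentile, and of 17.9 points in the lower part of the scale, below 50. Different probe sets of the same gene lay far apart, by a median of 29.3 points among 9010 genes with several. Values are given in the order shCaf1 replicate 1, shCaf1 replicate 2, shMiwi replicate 1, shMiwi replicate 2. Of the genes named by the hairpins, Piwil1 read 21881, 22442, 9780 and 10392, and Cnot7 read 3633, 4330, 4365 and 5012. On the control arrays, which stand apart, Piwil1 read 1445360 and 292542 and Cnot7 read 2003570 and 188877. These signals cannot be set against those of the 4 arrays, because the scales differ. The brightest probe set read 2003570 and 390114 on the controls, and 25812 to 35696 on the 4 arrays. By percentile Piwil1 lay at 99.89, 99.85, 99.05 and 99.08 on the 4 arrays, and at 99.99 and 99.98 on the controls.

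The 6 genes taken as markers of elongating spermatids were bright on all 4 arrays. Prm1, the protamine that packages sperm DNA, read 28335, 33525, 22731 and 22463 and ranked 5, 3, 13 and 7 among the 45037 probe sets. Tnp1, the transition protein that precedes it, read 27973, 31156, 21905 and 22590, at ranks 7, 6, 17 and 5. Prm2 read 26546, 26216, 19903 and 18090 (ranks 10, 21, 40 and 49), and Tnp2 read 21623, 21801, 19231 and 14281 (ranks 52, 76, 49 and 162). The flagellar genes followed: Odf1, of the outer dense fibres, ranked 153, 152, 314 and 433, and Akap4, the main anchoring protein of the fibrous sheath, ranked 311, 262, 856 and 903. As genes, Prm1, Tnp1 and Prm2 were among the 25 brightest and Odf1 and Akap4 were number 149 and 361. The marker genes of the labelled cell type were therefore present on each array. The lists of round spermatid and pachytene genes were high too, with medians of 96.7 and 95.7. The stage and purity of the sorted cells were not tested. Of the 6, 4 (Prm1, Prm2, Odf1 and Akap4) ranked lower on both shMiwi arrays than on both shCaf1 arrays. Over all genes 26.6% did, and 25.4% ranked higher. Tnp1 and Tnp2 overlapped, and no test was made. On control 1 the 6 markers lay at the 18.7, 9.45, 29.1, 1.55, 66.4 and 28.8 percentile (Prm1, Tnp1, Prm2, Tnp2, Odf1, Akap4), and on control 2 none was below 93.6.

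**Figure D1:**
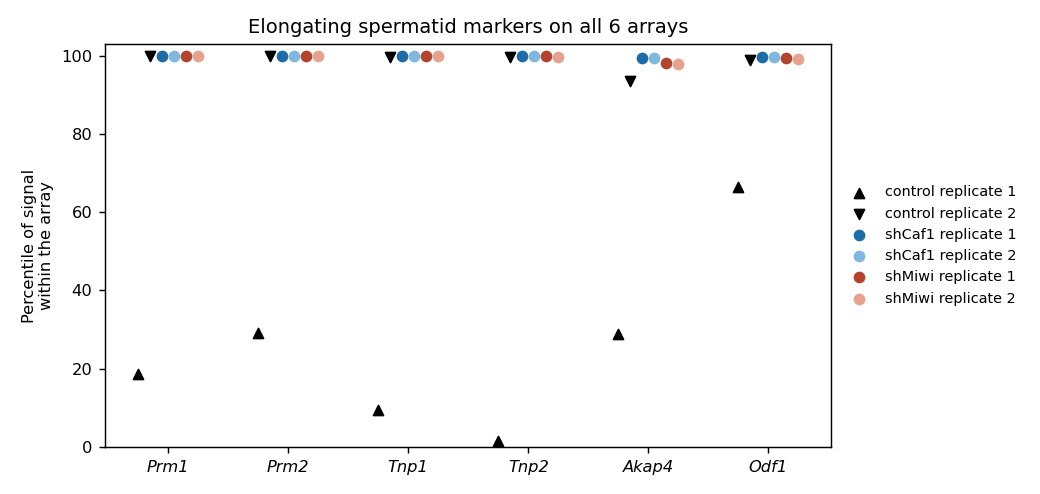
Percentile of signal within each array (vertical axis, 100 is the brightest probe set) for the 6 elongating spermatid markers, 1 point per array, on the 4 hairpin arrays and the 2 control arrays. The 4 hairpin arrays crowd near the top for all 6 genes, while control 1 lies between 1.55 and 66.4.

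Prm1, Prm2, Prm3 and Tnp2 are neighbours on mouse chromosome 16. Their percentiles were 99.99 (Prm1), 99.94 (Prm2), 98.4 (Prm3, an acidic protamine-like protein) and 99.8 (Tnp2). The next named genes outward, Socs1 on the Tnp2 side and Rmi2 and Litaf on the other, lay at 40.1, 48.9 and 85.8. The promoter windows of Prm1 and Tnp1 are shown because these are the brightest genes of the chromatin list, and capitals mark CG dinucleotides. They are RefSeq sequences of GRCm38.p6, 250 bases before to 50 bases after the gene start, written along the gene's strand. The Prm1 window is chr16:10796774-10797073 on the minus strand and holds 1 CG. The Tnp1 window is chr1:73015850-73016149 on the minus strand and holds 6.
Prm1: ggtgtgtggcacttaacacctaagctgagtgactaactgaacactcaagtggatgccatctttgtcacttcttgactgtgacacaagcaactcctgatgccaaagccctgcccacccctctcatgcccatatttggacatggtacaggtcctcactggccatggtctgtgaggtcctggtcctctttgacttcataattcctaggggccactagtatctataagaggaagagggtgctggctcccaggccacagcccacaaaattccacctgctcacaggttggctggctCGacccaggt
Tnp1: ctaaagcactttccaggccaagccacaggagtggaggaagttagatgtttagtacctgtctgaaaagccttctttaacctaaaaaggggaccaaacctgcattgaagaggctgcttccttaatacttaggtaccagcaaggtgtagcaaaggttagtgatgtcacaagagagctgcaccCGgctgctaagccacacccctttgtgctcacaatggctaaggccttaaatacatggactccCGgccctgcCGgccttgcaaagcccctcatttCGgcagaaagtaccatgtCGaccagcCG
Prm2 and Tnp2 held 3 and 4. The median was 17 over the 14452 array genes with a window, and 24 over the 20 of the 25 brightest genes that have one. The condensation genes had a median of 4 over 9 genes, so the brightest genes as a group did not share their low number of CG.

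The brightest named transcript was Ldhc, the lactate dehydrogenase subunit of germ cells, with 31418, 35696, 28714 and 25812 (ranks 4, 1, 2 and 1). Rps29, a small-subunit ribosomal protein, read 32132, 35046, 26600 and 24954 (ranks 2, 2, 3 and 2). Gstm5, a mu-class glutathione transferase, read 31565, 31439, 25768 and 22527 (ranks 3, 5, 4 and 6). Prm1 and Tnp1 came next, then Pebp1, a phosphatidylethanolamine-binding protein, and Pabpc1, the cytoplasmic poly(A)-binding protein (ranks 9, 14, 6 and 15). The top was flat: the brightest probe set of an array exceeded the one at rank 25 by only 1.34 to 1.42-fold, and the one at rank 100 by 1.62 to 1.83-fold. The order within it was not resolved, since all 24 neighbouring pairs of the 25 genes had overlapping rank ranges over the 4 arrays. Only 4 genes, Ldhc included, had ranges that reached that of Ldhc, and the remaining 21 ranked wholly below it.

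The 25 brightest genes covered a few functions. Apart from Ldhc, energy metabolism was represented by the cytochrome c oxidase subunits Cox7a2 (ranks 38, 15, 57 and 22) and Cox5a (40, 23, 52 and 27) and by Sucla2, a subunit of succinyl-CoA synthetase (44, 45, 33 and 51). Messenger RNA binding and translation were represented by Pabpc1, Pabpn1 (the nuclear poly(A)-binding protein), Ybx3 (a Y-box protein that binds stored germ cell mRNA), Eif4g2 (a translation initiation factor), Rps28, Rps29 and Rpl38. Protein folding was represented by Hsp90aa1, the HSP110-family chaperone Hspa4l and the chaperonin subunits Tcp1 and Cct3. The rest were Ppp1cc (the protein phosphatase 1 catalytic subunit with a sperm-enriched splice form), Cks2 (a cyclin-dependent kinase partner needed in meiosis), Tcfl5 (a germ cell transcription factor), Tmsb10 (an actin-monomer-binding thymosin) and Clu (clusterin, a secreted chaperone and Sertoli cell marker). Each of the 25 was within the first 100 probe sets on every array, and 14 genes were among the 25 brightest on each array taken alone. Just outside lay Fabp9, a testis fatty acid-binding protein (ranks 29, 34, 77 and 54), and then Ube2d3, Tubb4b, Eef1a1 and Slc2a3.

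The identity of these 25 genes depended on how a gene was represented. Averaging all probe sets of a gene kept 12 of them and using only probe sets with a plain _at name kept 7, since 19 of the 25 stood on probe sets of the _a_at, _s_at or _x_at kind. Tnp1 had another probe set at 84.5, Pabpc1 one at 61.6, Cct3 one at 46.0 and Hsp90aa1 one at 38.5. Tmsb10 and Eif4g2 each had one at 26.3, and Sucla2 one at 21.1. In contrast, the other probe set of Ldhc ranked 1, 4, 1 and 4, and the lowest of Prm1 and Clu lay at 99.9 and 99.5. The families of some of these genes, chosen because members were among the 25 and counted with those members, are given as a description only. Of 45 cytosolic ribosomal protein genes 35 exceeded the 90th percentile (median 98.4), against 17.2% of all genes, and the lowest, Rps16, lay at 13.4. Of 10 CCT chaperonin genes 9 did (median 99.6, lowest Cct8l1 at 86.6). The cytochrome c oxidase family was taken as every symbol starting with Cox and a digit, whether or not it names a subunit. Of these 25 genes 15 did (median 92.4, lowest Cox8b at 14.5).

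**Figure D2:**
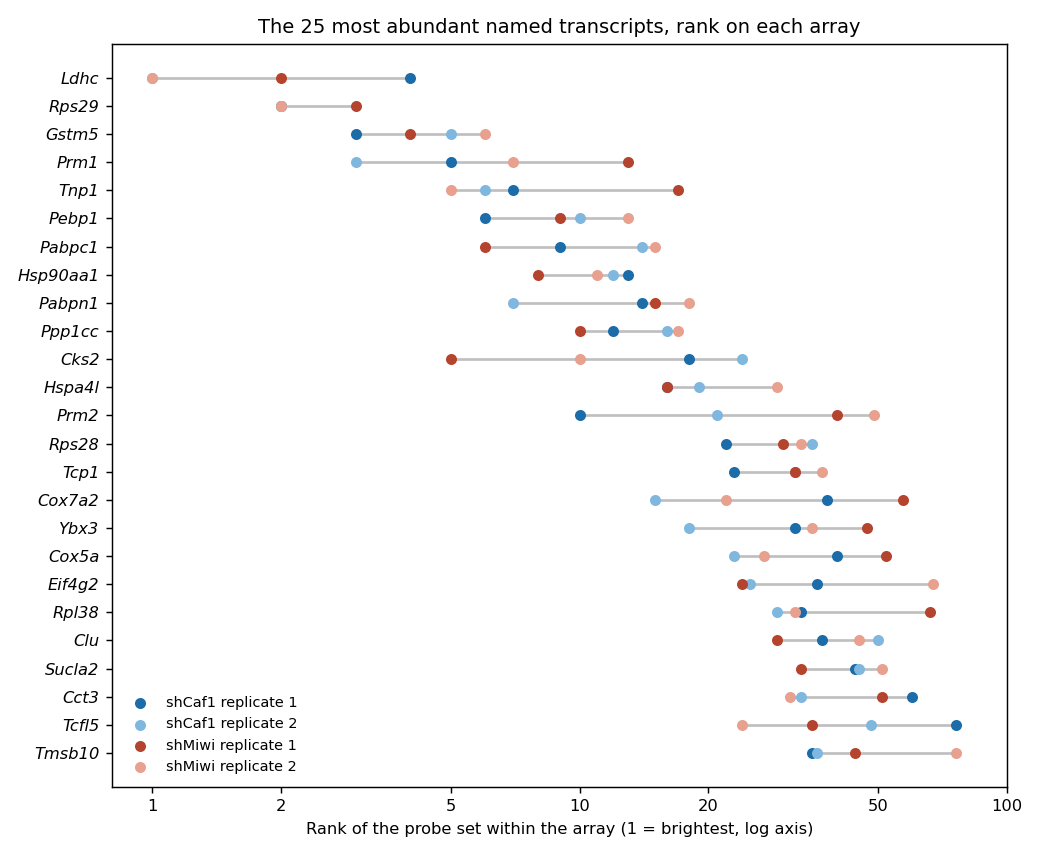
Rank of the probe set within the array (horizontal log axis, 1 is the brightest) for the 25 brightest named genes, with 1 point per array. The points of neighbouring genes overlap throughout, and all lie within the first 100 ranks.

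Gene lists for the structures a spermatid builds were high, and are given as the mean of the 4 array medians. The 9 measured genes of chromatin condensation had a median of 99.6 ± 0.068 (SD, n = 4 arrays), and all 9 exceeded the 90th percentile, as 17.2% of all genes did. On control 1 and control 2 the median of the same list was 13.8 and 99.4. Beside the protamines and transition proteins these include Hils1, a spermatid linker histone-like protein (16724, 16030, 13824 and 13818), Hmgb4 and H1f7, the spermatid H1 variant (99.2). The lowest was Prm3, at 10184, 12775, 6480 and 6555. The ubiquitin and proteolysis list, for the machinery that clears histones and cytoplasm, had a median of 98.4 ± 0.099 with 14 of 15 genes above 90. It was led by the conjugating enzyme Ube2d3, the proteasome ATPase Psmc3 (99.8), the proteasome activator Psme4 (99.7) and Klhl10, a cullin-3 adaptor of spermatids (99.3). Its lowest gene was Ube2n at 82.2.

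The flagellar list, named for the fibrous sheath and outer dense fibres, also held the tektins Tekt1, Tekt2, Tekt4 and Tekt5 and the gene Smcp. Of its genes 15 of 18 exceeded 90, with a median of 97.4 ± 0.65. Spa17, a sperm surface and fibrous sheath protein, read 21520, 23352, 17562 and 16771. Ropn1l (99.8), Akap3 (99.6) and Odf2 (99.4) followed, and Odf3b was lowest at 75.6. Of the acrosome genes 15 of 19 exceeded 90 (median 97.1 ± 0.62), led by the acrosomal matrix protein Acrv1 (15591, 17278, 12073 and 12388), Dkkl1, Zpbp (a zona pellucida-binding protein) and Spaca1, with Izumo4 lowest at 71.0. The testis-specific serine kinase list had 5 of 6 above 90 (median 94.8 ± 1.01), from Tssk6, a kinase needed for DNA condensation (98.6), through Tssk3 (97.7), Tssk2 (95.6) and Tsks (94.0) to Tssk4 (85.5). Tsks is a substrate of these kinases and not itself a kinase. The sperm head cytoskeleton list was lowest among these structures, with 9 of 13 above 90 (median 92.2 ± 0.77). It was led by the actin-like Actl7b (98.3) and Actrt2 (97.8) and the capping protein Capza3 (97.7), while Cylc2, of the calyx, lay at 54.2. Spata18 (96.1) was counted in this list, with nothing here to place it in the head.

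Of the earlier germ cell stages, the round spermatid and pachytene lists were high and the spermatogonial list lay near the median of all genes. The order of the round spermatid and pachytene lists depended on how a gene was represented. With all probe sets of a gene averaged their medians were 93.4 and 95.7, and with plain _at probe sets 94.2 and 95.7. Round spermatid genes had a median of 96.7 ± 0.69 (15 of 17 above 90), led by Pdcl2, a germ cell phosducin-like protein (99.8), and including the acrosomal Acrv1 and Zpbp and the adaptor Klhl10, with Tex21 lowest at 79.2. Pachytene spermatocyte genes had a median of 95.7 ± 0.45 (16 of 25 above 90), with Piwil1 first by its mean, then the synaptonemal complex genes Sycp2 (11875, 13576, 10870 and 12747) and Syce2 (99.2) and the surface protein Tex101 (99.03). Piwil1, the gene the shMiwi hairpin is named for, was first through the shCaf1 arrays (99.9 on each), and on the shMiwi arrays its 99.05 and 99.08 lay below Sycp2 (99.27 and 99.48) and Tex101 (99.55 and 99.33). The meiotic histone methyltransferase Prdm9 was lowest at 49.1. Spermatogonial genes had a median of 69.2 ± 0.34, close to the 68.7 of all genes, and 2 of 23 exceeded 90. These were Id4, a helix-loop-helix regulator of stem cells (7037, 6625, 8142 and 8326), and Dmrtb1, which acts at the entry into meiosis (3969, 4107, 3812 and 3115). Dmrt1 (86.6) and Etv5 (84.3) followed, and Thy1 was lowest at 12.2. The ubiquitously expressed genes, for scale, had a median of 97.0 ± 0.19 with 9 of 15 above 90, from Eef1a1, Actb, Rps18 and Rpl13a (99.4) to Gusb (70.6).

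Of 39 listed pairs of a germ cell gene and its counterpart, 31 had probe sets of 1 gene for both members, and the other 8, Gapdhs and Gapdh among them, were not compared. The name germ cell member is that of the pair list. Whether a member is confined to germ cells was not examined, and Pgam2, Csnk2a2 and Tbpl1 should not be read as testis-specific. The germ cell member had the higher percentile on all 4 arrays in 25 pairs, the counterpart in 6, and no pair was mixed. The pairs were chosen with earlier results of these data known, and no other paralogue pairs were counted. The count therefore describes the listed pairs only. By at least 5 points on every array, the count was 15. On control 1 it was higher in 15 and on control 2 in 20 of the 31 pairs. In 21 pairs every probe set of the germ cell gene lay above every probe set of the counterpart. Where the germ cell gene has 1 probe set, this repeats the comparison by mean percentile and adds nothing to it. Of the higher germ cell genes with several probe sets, Ldhc and Cetn1 met this condition. Cox8c, Tbpl1, Fabp9 and Csnk2a2 did not. The median germ cell member lay at 98.3 and the median counterpart at 91.4. Of the germ cell members 27 exceeded the 90th percentile and 25 the 95th. Counterparts were not silent: 16 of 31 also exceeded the 90th percentile, against 17.2% of all genes, and 11 the 95th, against 8.53%.

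The widest gap was at ribosomal protein L39. Rpl39l, the germ cell copy, read 18052, 22584, 16002 and 16198, and Rpl39, on the X chromosome, read 229, 190, 275 and 214, a difference of 33.8 ± 1.49 percentile points (SD, n = 4). Pdha2, the germ cell alpha subunit of pyruvate dehydrogenase, read 6803, 6411, 7205 and 7484 against 302, 275, 378 and 340 for the X-linked Pdha1 (27.1 ± 0.87 points). Pgk2, the germ cell phosphoglycerate kinase, read 11425, 11870, 6927 and 8802 against 1247, 1204, 1229 and 1397 for the X-linked Pgk1 (11.8 ± 0.62 points). Rbmxl2, a germ cell hnRNP G, read 1068, 1007, 1240 and 1027 against 91, 111, 105 and 114 for the X-linked Rbmx (29.9 ± 2.75 points). In each of these pairs the percentiles of both members did not overlap over the 4 arrays. They are the 4 pairs, of 20 with a promoter window for both members, whose counterpart is on X, and their germ cell members are on autosomes. Outside these 20 pairs, the counterpart Cetn2 is also on X. So is the germ cell member Taf7l, which nevertheless exceeded Taf7 by 11.6 points. The heat shock protein Hspa1l read 9973, 10804, 6306 and 5973 and the inducible Hspa1a 430, 443, 410 and 428, a difference of 23.8 ± 0.7503 points. Differences above 10 points were found in 13 pairs in all, among them the dynein light chain Dynlrb2 over Dynlrb1 (25.1), Pdcl2 over Pdcl (24.01), the centrin Cetn1 over Cetn2 (18.6), the casein kinase subunit Csnk2a2 over Csnk2a1 (17.3), and the general transcription factor subunit Gtf2a1l over Gtf2a1 (15.7). The calcineurin subunit Ppp3r2 over Ppp3r1 (15.3), Cox8c over Cox8a (13.8) and Taf7l over Taf7 (11.6) complete them.

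Where both members were near the top of the scale the percentile left little room for a difference. Ldhc exceeded Ldha, itself at 98.9, by 1.08 ± 0.101 points. Hspa2, the meiotic HSP70, read 14733, 16537, 12902 and 13355 against 10234, 12275, 9484 and 11461 for Hspa8 (0.496 ± 0.171 points). Capza3 exceeded Capza1 by 0.893, Fabp9 exceeded Fabp3 by 1.41, and cytochrome c testis (Cyct) exceeded Cycs by 2.36. The other germ cell members that were higher on all 4 arrays did so by 2.91 (Slc25a31 over Slc25a4), 3.57 (Cox6b2 over Cox6b1), 4.52 (Psma8 over Psma7), 4.55 (Dnajb3 over Dnajb1), 6.13 (Txndc8 over Txn1), 6.75 (Tbpl1 over Tbp) and 9.93 points (Pgam2 over Pgam1).

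The 6 pairs in the opposite order were led by the linker histones. The pachytene H1f6 read 89, 69, 147 and 93 against 1074, 931, 907 and 934 for H1f2, a difference of -30.2 ± 5.11 points. The aldolase Aldoart1 was below Aldoa (-5.91 ± 2.88), the poly(A)-binding Pabpc2 below Pabpc1 (-4.80 ± 0.482), and the calcineurin catalytic subunit Ppp3cc below Ppp3ca (-3.69 ± 0.331). Cct6b was below Cct6a (-1.64 ± 0.682) and Actl7b below Actb (-1.42 ± 0.374), although both germ cell members exceeded the 95th percentile.

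**Figure D3:**
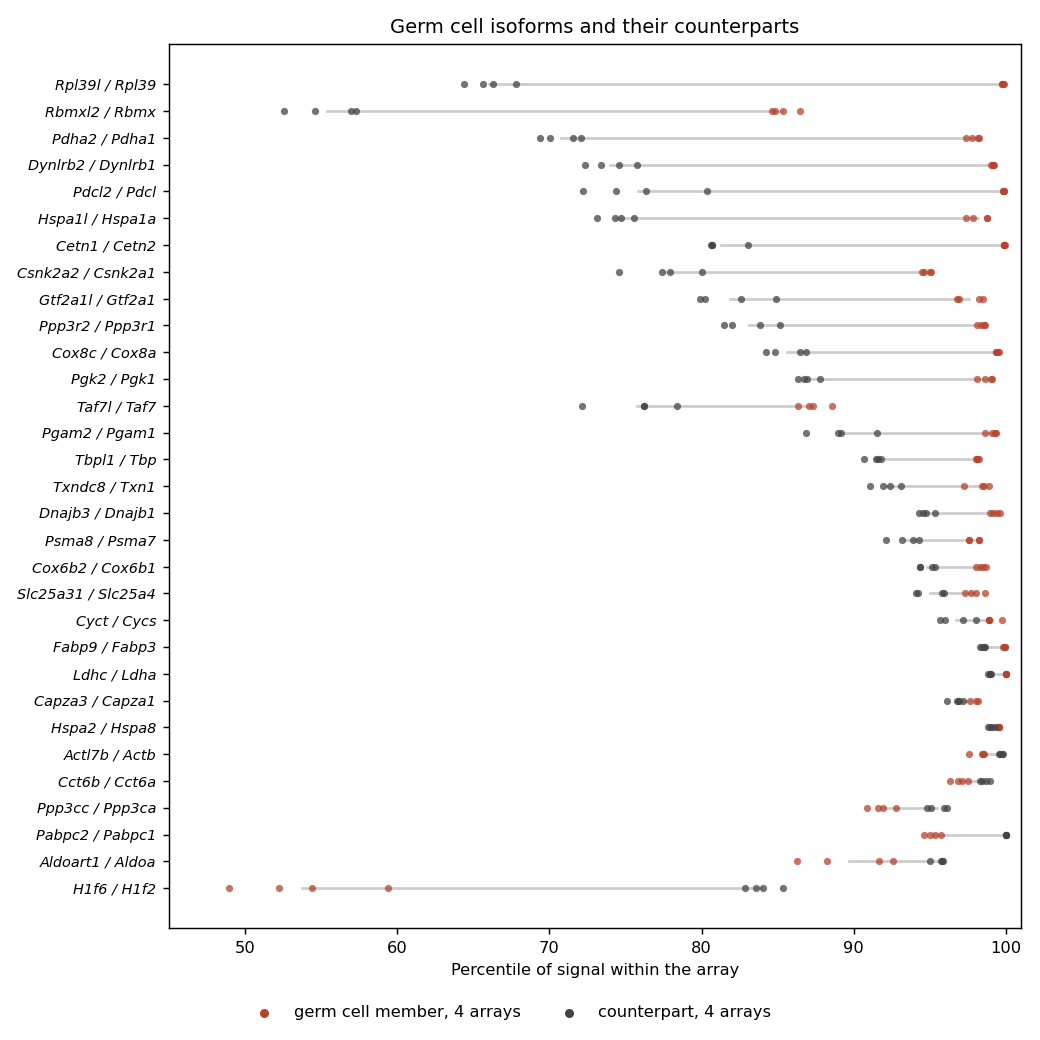
Percentile of signal within the array (horizontal axis) of both members of the 31 measured pairs, 1 point per array. The germ cell member lies to the right in 25 pairs, and H1f6, the linker histone, lies furthest to the left among germ cell members.

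The promoter windows of the X-linked enzymes and their autosomal copies are shown because these pairs differ by a wide margin on every array. Capitals again mark CG, and sequences are of RefSeq, GRCm38.p6. Pgk2 is chr17:40208560-40208859 (minus strand, 4 CG), Pgk1 chrX:106186850-106187149 (plus strand, 24 CG), Pdha2 chr3:141212306-141212605 (minus strand, 4 CG) and Pdha1 chrX:160138381-160138680 (minus strand, 21 CG).
Pgk2: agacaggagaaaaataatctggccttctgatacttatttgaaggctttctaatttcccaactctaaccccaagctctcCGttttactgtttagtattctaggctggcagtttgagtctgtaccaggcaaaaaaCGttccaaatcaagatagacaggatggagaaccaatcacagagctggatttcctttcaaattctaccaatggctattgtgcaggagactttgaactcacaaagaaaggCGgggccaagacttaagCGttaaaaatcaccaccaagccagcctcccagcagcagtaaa
Pgk1: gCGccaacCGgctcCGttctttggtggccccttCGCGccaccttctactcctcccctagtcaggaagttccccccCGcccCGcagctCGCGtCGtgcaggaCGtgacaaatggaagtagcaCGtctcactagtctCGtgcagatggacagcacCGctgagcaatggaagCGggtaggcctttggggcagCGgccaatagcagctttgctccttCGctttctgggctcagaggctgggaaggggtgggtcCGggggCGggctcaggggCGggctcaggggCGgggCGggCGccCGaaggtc
Pdha2: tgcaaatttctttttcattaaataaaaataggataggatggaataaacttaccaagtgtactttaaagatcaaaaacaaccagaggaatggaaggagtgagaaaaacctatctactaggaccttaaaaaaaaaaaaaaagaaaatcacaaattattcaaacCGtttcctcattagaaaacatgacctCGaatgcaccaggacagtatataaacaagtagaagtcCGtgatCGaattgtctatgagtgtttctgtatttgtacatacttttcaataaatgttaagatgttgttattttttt
Pdha1: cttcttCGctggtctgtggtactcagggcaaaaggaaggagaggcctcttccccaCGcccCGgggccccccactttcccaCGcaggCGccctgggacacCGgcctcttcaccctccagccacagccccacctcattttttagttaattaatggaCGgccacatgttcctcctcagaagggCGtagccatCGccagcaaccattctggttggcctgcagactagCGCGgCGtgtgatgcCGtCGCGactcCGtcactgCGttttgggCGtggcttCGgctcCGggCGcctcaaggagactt
Over the 20 pairs with both windows, the germ cell member held fewer CG in 15, with a median of 11 against 20.5 for the counterparts. In 4 pairs it held more: Rbmxl2 (29 against 11 in Rbmx), Csnk2a2 (30 against 20 in Csnk2a1), Tbpl1 (24 against 17 in Tbp) and Gtf2a1l (18 against 17.5 in Gtf2a1, the mean of its windows). Rpl39l and Rpl39 held 17 each. The number of CG therefore did not follow the signal in each pair, and a count of letters says nothing about methylation or binding here.

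Transcripts of other testis cells were also examined, although the sort took GFP-positive elongating spermatids from isolated germ cells. Of 109 distinct genes of Sertoli, Leydig, peritubular myoid, macrophage, endothelial, erythrocyte, lymphocyte and matrix lists, 27 (24.8%) exceeded the 90th percentile, against 17.2% of all genes and 0 of 39 genes of other organs. The median of the other organ genes was 37.2 ± 2.01 (50.9 and 54.1 on the control arrays), and the highest of them was the cardiac troponin Tnni3 at 85.8 (1099, 1231, 1144 and 1076). The next were Myh6 (83.5), Pomc (82.4) and Sftpb (70.5), and the lens crystallin Cryaa was lowest at 8.37. Above Tnni3 lay 32 of the 109 genes. With all probe sets of a gene averaged, 15 (13.8%) exceeded the 90th percentile, against 8.33% of all genes, and with plain _at probe sets 17 of 96 did (17.7%), against 13% of all genes. No test of these shares was made. In RNA of a mixed sample, fewer cells of a type and less RNA per cell cannot be told apart.

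The Sertoli list held a few very bright genes. Clu read 22862, 23196, 20938 and 18287 (ranks 37, 50, 29 and 45). Amhr2, the anti-Muellerian hormone receptor, read 18567, 18238, 20009 and 19254. The cystatins Cst12 (13176, 13511, 13895 and 15275) and Cst9 (13727, 13985, 12831 and 12497) followed, and 5 of 27 genes exceeded the 99th percentile, against 1.48% of all genes. Amh, the hormone itself, was lowest and read 10, 11, 54 and 8. Further members, chosen after their values were seen, covered a wide range. The transcription factors Sox9, Gata4, Gata1, Wt1 and Dmrt1 lay at 68.7, 64.2, 80.2, 83.1 and 86.6. The follicle-stimulating hormone receptor Fshr lay at 56.6 and the signal Dhh at 84.1. The inhibin subunits Inha and Inhbb lay at 96.8 and 90.8, the gap junction protein Gja1 at 95.9, vimentin (Vim) at 96.9, the protease Ctsl at 99.3 and Aard at 98.6. The lowest probe set of Ctsl lay at 5.81, that of Gja1 at 34.4 and that of Inhbb at 66.1. For Vim and Amhr2 the lowest lay at 94.1 and 94.5, and Inha and Aard had 1 each. The list median was 84.8 ± 1.72 (54.4 on control 1 and 89.0 on control 2), and 11 of 27 genes exceeded the 90th percentile. Which cells the bright genes came from was not tested.

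The Leydig list had a median of 92.3 ± 0.57 over 10 measured genes, with 6 above the 90th percentile. Cyp17a1, the 17-alpha-hydroxylase of androgen synthesis, read 10816, 10956, 12922 and 12596, and Cyp11a1, which cleaves the cholesterol side chain, read 4445, 4766, 6763 and 6336, with another of its probe sets at 12.0. Fdx1, the electron donor of mitochondrial P450 enzymes, lay at 98.2. Ptgds, prostaglandin D synthase, read 15416, 17649, 2873 and 3149, so its shMiwi values lay well below its shCaf1 values. Hsd17b3, the last step of testosterone synthesis, was lowest at 780, 660, 504 and 530, and Star, chosen after its value was seen, lay at 80.8.

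Other somatic lists were lower. Peritubular myoid genes had a median of 70.2 ± 3.21, with the smooth muscle actins Acta2 (3103, 3254, 3969 and 3606) and Actg2 (91.4) above 90, then Mylk (88.8) and Myl9 (930, 817, 1763 and 1603), and Lmod1 lowest at 16.8. The lowest probe sets of Acta2 and Mylk lay at 13.5 and 40.2, and Actg2 and Myl9 had 1 each. The matrix list had a median of 80.3 ± 4.44 with 4 of 14 above 90. These were Sparc (8485, 8115, 10921 and 9300), Dcn (2333, 2157, 2641 and 3378), Col1a2 (1386, 1400, 3889 and 3987) and Col3a1 (1206, 1188, 4863 and 4342), and Lum was lowest at 57.1. Macrophage genes had a median of 68.3 ± 0.71 with 4 of 19 above 90, Aif1 (7098, 7442, 4410 and 4975), Lyz1 (96.0), the receptor Csf1r (91.5) and Lyz2 (90.9), and Itgam was lowest at 18.4. The lowest probe sets of Lyz1 and Csf1r lay at 26.4 and 64.5, and Aif1 and Lyz2 had 1 each. Endothelial genes had a median of 51.2 ± 3.65 and none above 90, the highest being Cldn5 (70.8), Vwf (65.3), Esam (63.4) and Eng (63.1), and Tie1 the lowest (9.90). Erythrocyte genes had a median of 37.8 ± 9.55 over 6 genes, from Alas2 (67.0), Hba-a2 (55.8), Hbb-b2 (33, 72, 51 and 74) and Slc4a1 (29.8) to Epb42 (21.1). Lymphocyte genes had a median of 32.3 ± 2.95, with Cd3d (1309, 1282, 787 and 835), Ighm (67.7), Cd8a (47.5) and Ptprc (43.3) above the rest, and Cd79b the lowest (12.1). The erythrocyte and lymphocyte medians were thus near the 37.2 of the other organ genes, or below it.

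**Figure D4:**
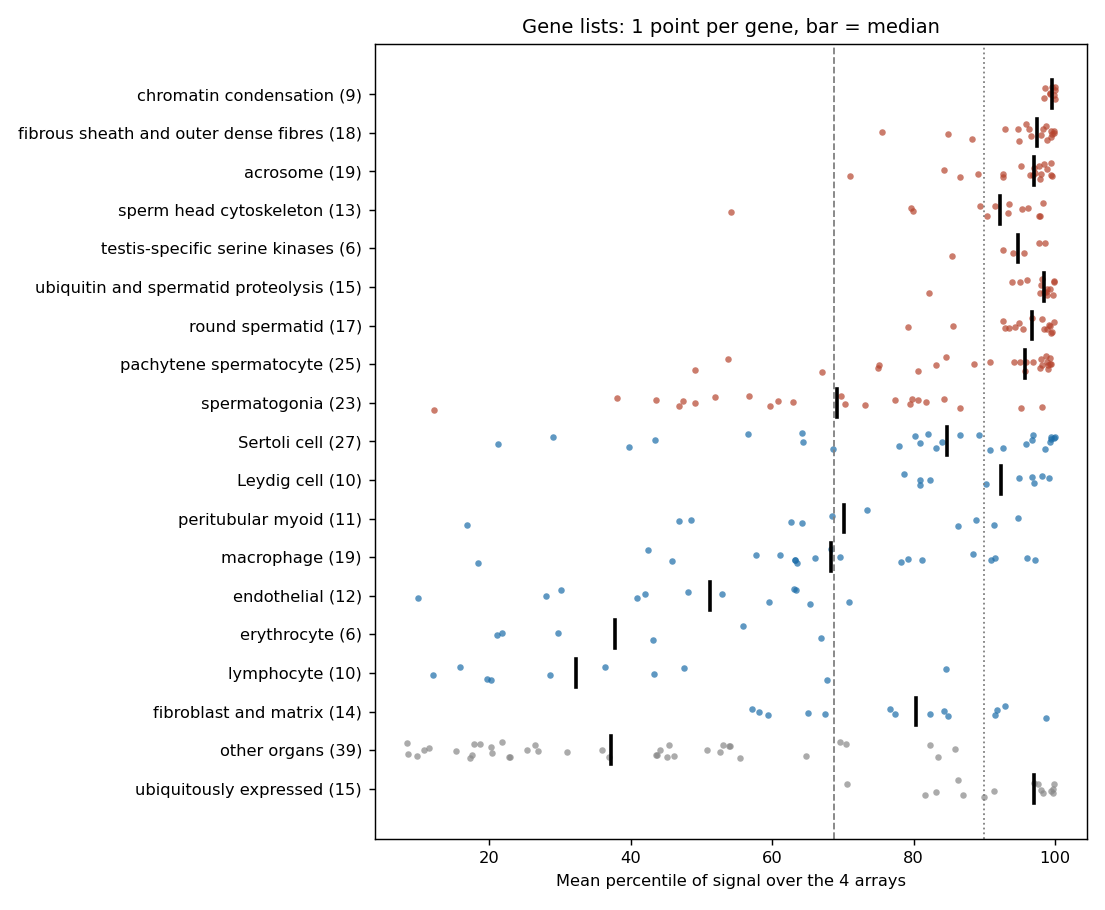
Mean percentile over the 4 arrays (horizontal axis) of each measured gene of every list, 1 point per gene, with a bar at the list median. Germ cell structure lists crowd above the 90th percentile, while the Sertoli list spreads from 21.3 to the top and the other organ list does not pass 85.8.

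Within the set, some lists differed in position between the arrays of each hairpin, and no test of this difference was made. Over all genes, 26.6% lay lower on both shMiwi arrays than on both shCaf1 arrays and 25.4% lay higher. Of the flagellar list (fibrous sheath and outer dense fibre genes, with tektins and Smcp) 16 of 18 lay lower and 1 higher. Its medians were 98.0, 97.9, 97.1 and 96.6. All 6 genes of the testis-specific kinase list, Tsks included, lay lower. So did 11 of 19 acrosome genes, 8 of 13 genes of the head cytoskeleton list and 5 of 9 condensation genes. In the opposite direction 13 of 14 matrix genes lay higher on the shMiwi arrays, with list medians of 76.8, 76.2, 84.8 and 83.4, as did 8 of 11 peritubular myoid genes, 13 of 27 Sertoli genes and 10 of 25 pachytene genes. Of the 25 brightest genes 3 lay higher and 5 lower. The part of matrix, myoid or Sertoli cell RNA in the lower position of the flagellar genes was not tested.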

How the data were processed

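The authors deposited linear signal intensities, made with MAS5 per the submitters' processing notes, whose version is not given in the sources used here. The deposited intensities share a trimmed mean of 500 (2% trimmed), so each is relative to its own array, and arrays are compared by rank. Total RNA was amplified from the 3' end, per the labels' protocols. Of 45101 probe sets, 64 Affymetrix controls were left out. Platform annotation names 1 gene for 34945 of the 45037 ranked probe sets, several for 932 and none for 9160; only the first kind was used for genes. Entrez identifiers were found in the mouse RefSeq table (GRCm38.p6) for 99.4% and changed 0 symbols. The number of arrays, 4, limits the precision. Each array was ranked with pandas 2.3.3 (Python 3.11.15, scipy 1.17.1). The code was also run on simulated arrays in which planted probe sets were set above all others. That run checks the code only and says nothing about the order of genes reported here. No statistical test was made, since the 4 arrays are ranked as one set: the error is the SD over 4 arrays, and differences between the hairpins are given only as counts of genes without overlap. The members, lists and pairs were chosen with earlier results of these data known. Genes named are the top 25, the 6 markers, both members of measured pairs, and of each list the 4 highest and the lowest; others are marked. Genes represented by the mean of all probe sets or by plain _at probe sets, other orders, thresholds and leaving out each array were also tried.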

Additional observations from a re-analysis of the deposited data

Results flagged for a closer look

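Of 107 percentiles and list medians examined over the 4 arrays, 6 had 1 array with an unusually wide gap from the other 3, and chance gives this in about 5% of such groups. On shMiwi replicate 2, Cyct, the testis cytochrome c, lay at 99.73 (98.90, 98.85 and 98.85 on the others), Cetn2, a centrin, at 83.07 (80.66, 80.66 and 80.64), and Aldoa, an aldolase, at 94.99 (95.79, 95.72 and 95.83). On shMiwi replicate 1, Tnp1 lay at 99.9645 (99.9867, 99.9889 and 99.9911), Rpl38 at 99.8557 (99.9289, 99.9378 and 99.9312) and Rps29 at 99.9956 (99.9978 on each of the others). For Rps29 this is a step of 1 rank, from rank 2 to rank 3.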

How the results depend on the processing

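No paired analysis was possible because the results come from no test: the shMiwi and shCaf1 arrays were set side by side only by counts of genes without overlap, which take no block. Leaving out each array in turn kept 23 to 24 of the 25 brightest genes, 25 of the 25 pairs and 24 to 27 somatic genes above the 90th percentile, and moved every list median by less than its SD. Ranking by mean log2 signal kept 25 of the 25 genes and by the lowest percentile 22; including unnamed probe sets kept 16. Requiring 5 points on every array left 15 pairs, and the 95th percentile left 16 somatic genes; with the highest other organ gene as the limit it was 32. With all probe sets of a gene averaged, 12 of the 25 genes remained, 26 pairs and 15 somatic genes were counted, and list medians became 99.2 (chromatin condensation), 96.0 (fibrous sheath), 93.0 (acrosome), 90.4 (head cytoskeleton), 93.3 (kinases), 93.9 (ubiquitin), 93.4 (round spermatid), 58.6 (spermatogonia), 78.8 (Sertoli), 85.5 (Leydig), 51.5 (myoid), 47.4 (endothelial), 24.7 (erythrocyte), 28.0 (lymphocyte), 61.9 (matrix), 26.1 (other organs) and 80.9 (ubiquitous). With plain _at probe sets only, 7 of the 25 genes remained, 23 of 25 pairs and 17 of 96 somatic genes were counted, and medians became 99.2 (chromatin condensation), 95.9 (fibrous sheath), 93.3 (kinases), 97.9 (ubiquitin), 94.2 (round spermatid), 66.3 (spermatogonia), 82.9 (Sertoli), 90.8 (Leydig), 64.5 (myoid), 64.3 (macrophage), 25.8 (lymphocyte) and 92.4 (ubiquitous). Averaging thus moved 19 of 22 results beyond their spread or 1.5 times their count and the plain _at choice 14 of 22, while leaving out an array moved 0 of 22. Signal close to background limits the lower end of the scale, where the arrays order probe sets less closely.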

Other observations

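Of the 25 brightest probe sets, 17 name 1 gene (14 distinct genes), 6 name several and 2 name none, so they are outside the gene ranking. A probe set shared by Dynlt1a, Dynlt1b, Dynlt1c and Dynlt1f, dynein light chains of the Tctex family, ranked 11, 11, 12 and 3. A pair of probe sets shared by Tcte3, another Tctex-type light chain, Gm3448 and Gm3417 ranked 20, 9, 22 and 8, and 8, 27, 14 and 58. A probe set shared by the germ cell tubulins Tuba3a and Tuba3b ranked 21, 38, 20 and 42, and others shared by Chchd2 and a pseudogene and by Rpl9 and Gm5451 ranked 27, 22, 19 and 43, and 39, 31, 41 and 12. The unnamed ones ranked 26, 17, 11 and 16, and 24, 20, 18 and 26. Signals of the members of such families cannot be told apart here.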
